A study of Drosophila melanogaster with 3 samples.

Results

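The BaitC array records which DNA lay near 1 insulator binding site of the Drosophila melanogaster genome, the bait fragment on chromosome arm 3R at 384440 to 385252. It was taken by its label and is 1 of the 3 arrays of the study, and all 2157868 of its probes were used. The bait is on the centromere-proximal part of 3R. The study mapped contacts of chosen insulator sites within and between chromosomes in S2-DRSC cells, an embryonic Drosophila line that the design calls control cells, with no genetic change or treatment named. The other baits, BaitA on 3R at 91997 to 92920 and BaitB on 2L at 8485115 to 8485894, were mapped in the same line, and their arrays serve here only as reference. Per the labels' protocols, cells grown in Schneider's medium with serum were fixed with formaldehyde, their chromatin was cut with DpnII and ligated, and the DNA joined to a bait was amplified in 2 rounds of inverse PCR. The product was hybridised in Cy5 against DpnII-cut, unligated genomic DNA in Cy3, which is the background of each array. What binds the bait in these cells is not stated beyond the word insulator. The cells of 1 line and 1 array per bait stand behind every value, so every spread given is one among probes or bins of a single array, no difference between arrays has a replicate check, and no p-value is given. The number of arrays limits the precision.

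Circular chromosome conformation capture (4C) reads the neighbours of a single fragment. Cross-linked DNA that lies close to the bait in the nucleus is ligated to it, so a high ratio of 4C product to unligated DNA marks DNA that was joined to the bait often. Insulator sites are DNA elements bound by proteins such as CTCF, su(Hw), BEAF-32 and Cp190, which in flies lie at many borders of chromatin domains and can shield promoters from enhancers. In 4C the signal is usually highest next to the bait and falls with distance along the chromosome, and narrow raised places far away or on other chromosomes are candidate contacts.

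Ratios are given as log2 of 4C product over unligated DNA, minus the median of the array. All probes together had an SD of 1.50 for BaitC, 2.45 for BaitA and 2.50 for BaitB. Per the file headers it was hybridisation 3 of a slide that neither other bait used, and bait and slide cannot be told apart as sources of that spread. Because the BaitC array spread less, values are also given in SD of their own array. On that scale its upper tail was the longest of the 3, with 0.260% of probes over 3 SD against 0.0657% for BaitA and 0.0936% for BaitB. Its highest probe stood at 5.58 SD, and the highest probes of the BaitA and BaitB arrays at 4.01 and 3.97 SD.

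The bait and its edges were the most raised place of the array. The 15 probes inside BaitC averaged 7.53 ± 0.58 (SD over probes), with the lowest at 6.44 and the highest at 8.35. The highest peak of the domain, at 385290 to 385617 just outside the bait, averaged 7.82 over 7 probes. The bait mean was 5.04 SD of the array, while BaitA reached 3.41 SD and BaitB 3.43 SD in their own arrays. The same 15 probes averaged 3.70 ± 0.50 with BaitA, which is 1.51 SD, and 0.37 ± 0.73 with BaitB, which is 0.15 SD. The BaitC interval was thus raised in the array of the other 3R bait and near the median in the array of the 2L bait. In the other direction the BaitC array stood at 0.50 ± 0.94 over the 17 probes inside BaitA and at 0.88 ± 0.36 over the 14 probes inside BaitB. These few probes do not stand for their surroundings. In 10 kb bins within 20 kb of each bait, the BaitC array averaged 1.68 around BaitA and -0.01 around BaitB.

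A continuous domain of raised signal surrounded the bait. The domain was defined on 10 kb bins as the stretch around the bait up to the nearest run of 5 bins below 0.85 (0.57 SD), the 95th percentile of the bins on 2L, 2R, 3L and X. It ran from 3R 40001 to 880000, a length of 840 kb with 345 kb on the centromere side and 495 kb on the other. The centromere side was not closed by that rule, because the deposited values begin 4 bins further on, and these 4 bins read -0.18, 0.53, 0.68 and -0.32. Of the 84 bins, 78 were above the limit. The bins averaged 2.51 ± 1.52 in the BaitC array, or 1.68 SD, against 3.81 for BaitA, which lies within the same stretch, and 0.13 ± 0.94 for BaitB. There were 58 bins over 1 SD, 24 over 2 SD, 15 over 3 SD and 1 over 4 SD, while 0 bins passed 1 SD in the BaitB array. Outside 3R, 20 of 9170 bins of the BaitC array passed 1 SD, a background of 0.218%. The domain was chosen by these same values, so the counts describe it and test nothing.

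**Figure D1:**
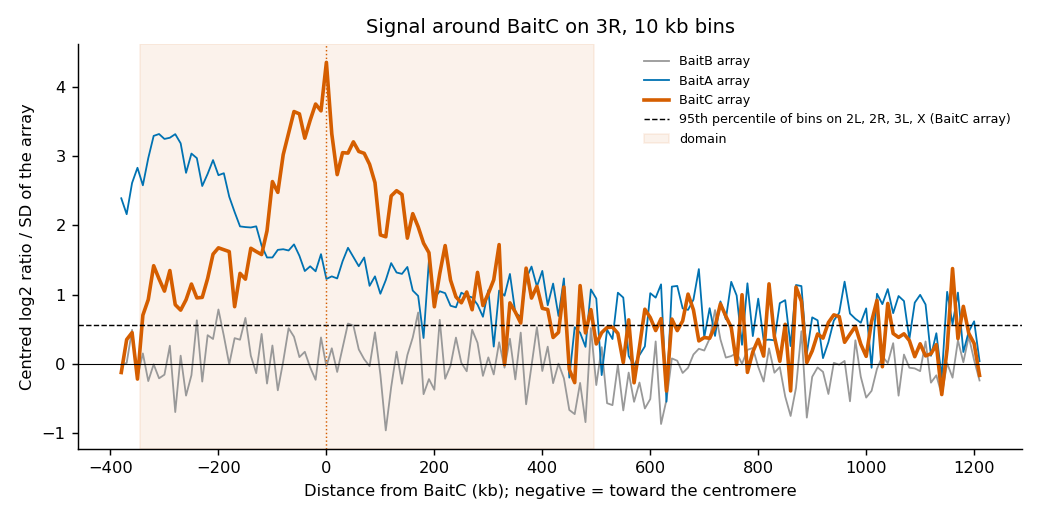
Mean of each 10 kb bin on 3R divided by the SD of its array (vertical axis) against the distance from BaitC in kb (horizontal axis, negative toward the centromere), for the BaitC, BaitA and BaitB arrays. The shaded domain runs from 345 kb on the centromere side to 495 kb on the other, the BaitC curve peaks at 4.35 SD at the bait, and the dashed line marks 0.57 SD.

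All 6 domain bins under the limit lay more than 330 kb from the bait on the side away from the centromere, with values of -0.01, 0.57, 0.68, -0.12, -0.40 and 0.67. The reach of the domain therefore depended on how such gaps were bridged. With 10 bins in a row required the stretch extended to 1430000, and with 20 kb bins to 1440000, while 5 kb bins gave an end at 875000 and the 99th percentile left the end at 880000.

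Inside the domain the level did not fall evenly. Bins over 1 SD were contiguous from 220001 to 580000, a stretch of 360 kb, and bins over 2 SD from 280001 to 480000, a stretch of 200 kb that reached 105 kb toward the centromere and 95.2 kb away from it. That core averaged 4.80 ± 0.68 over 20 bins for BaitC, 3.57 for BaitA and 0.42 for BaitB. Bins over 3 SD formed a stretch from 300001 to 400000 and, after 1 lower bin, another of 5 bins from 410001 to 460000. Of these 15 bins, 8 lay toward the centromere, 6 away from it and 1 held the bait. In SD units the BaitC array was above the BaitA array in an unbroken run of 31 bins from 270001 to 580000, and below it in the adjoining bin at each end. The borders of this run depend on the scale. On the log2 scale the unbroken run around the bait was shorter, from 300001 to 490000. BaitA was higher in the adjoining bins, with 4.03 against 3.70 at 290001 and 2.96 against 2.74 at 490001.

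The level changed most around the borders of the core, over several bins. At 280000, which is 105 kb from the bait toward the centromere, means of the 5 adjoining bins on each side were compared. They rose from 2.40 ± 0.37 outside to 4.51 ± 0.72 inside, a difference of 2.12. At 270000, 290000 and 300000 this difference was 1.79, 1.99 and 1.98. Bin by bin the level went from 2.36 at 260001 through 2.87, 3.93, 3.70, 4.51 and 4.98 to 5.44 at 320001. The BaitA array ran the opposite way at 280000, from 4.49 to 4.01, and the BaitB array was at 0.40 and 0.42. On the other side the level dropped at 470000 from 4.55 ± 0.17 to 3.36 ± 0.55 and again at 550000 from 3.39 ± 0.43 to 2.23 ± 0.67. Around the gene spartin the 10 kb bins fell from 3.91 to 2.78, recovered to 3.74 at 130 kb from the bait and then declined. These places were chosen for the largest differences between adjoining 5-bin means, after the values were seen.

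By distance, the mean over bins was 5.63 ± 0.64 (3.77 SD) within 20 kb of the bait, 4.78 ± 0.49 at 20 to 50 kb and 4.47 ± 0.53 at 50 to 100 kb. The decline within the first 100 kb was followed by a lower level, with 2.65 ± 0.61 at 100 to 200 kb and 1.62 ± 0.40 at 200 to 300 kb. The sides differed most at 100 to 200 kb, where 10 bins toward the centromere averaged 2.26 ± 0.46 and 10 bins away from it 3.05 ± 0.48. At 20 to 50 kb the order was the other way round, with 5.17 ± 0.27 toward the centromere and 4.40 ± 0.27 away from it over 3 bins each. At 200 to 300 kb the sides stood at 1.62 ± 0.37 and 1.63 ± 0.44 and did not differ beyond the spread of their bins.

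**Figure D2:**
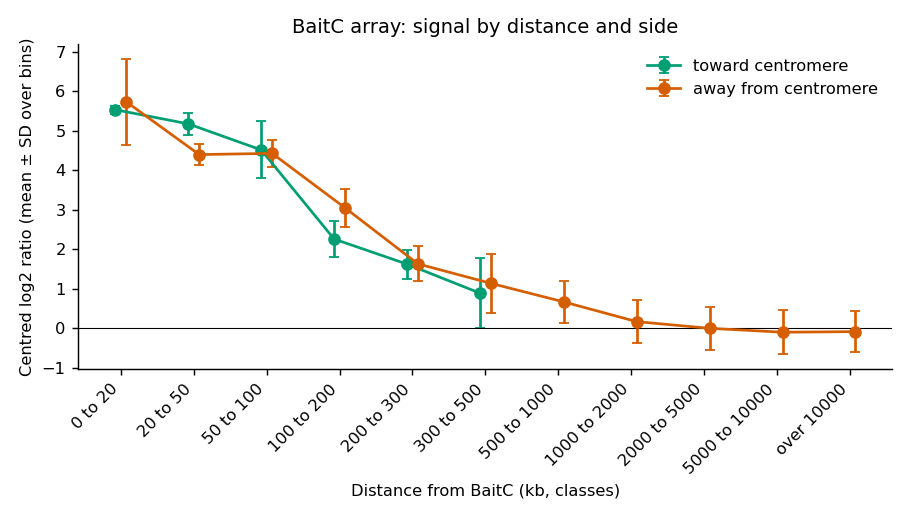
Mean log2 ratio of the BaitC array over 10 kb bins (vertical axis, bars are the SD over bins) in classes of distance from the bait in kb (horizontal axis), for bins toward and away from the centromere. The sides cross: the centromere side is higher at 20 to 50 kb, 5.17 against 4.40, and lower at 100 to 200 kb, 2.26 against 3.05.

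Between 10 and 350 kb the ratio fell by 1.31 on the log2 scale per doubling of distance toward the centromere and by 0.90 away from it. In SD units these slopes were -0.87 and -0.60. Away from the centromere BaitA had -1.23 on the log2 scale (-0.50 SD) and BaitB -0.98 (-0.39 SD) per doubling, so BaitC had the shallowest slope in log2 and the steepest in SD units. From 10 to 2000 kb on that side the slopes in SD units were -0.50 for BaitC and -0.47 for both other baits. Beyond the domain the mean over bins was 0.66 ± 0.52 at 500 to 1000 kb. That is above the spread of bins on 2L, 2R, 3L and X, which averaged 0.01 ± 0.54. At 1000 to 2000 kb the mean was 0.16 ± 0.55 and at 2000 to 5000 kb -0.00 ± 0.54, both within that spread. The megabase next to the centromere was also raised on other arms, at 0.31 ± 0.39 on 2L, 0.42 ± 0.36 on 2R and 0.48 ± 0.32 on 3L. Nearness to the bait and nearness to the centromere cannot be told apart for values of that size on 3R.

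The bait lay outside every gene span listed in the peak-to-feature tables. The nearest records were CG41516, which ends 7679 bp from it, Mur82C at 15503 bp and CG32945 at 18562 bp, and none was within 5 kb. Mur82C is named as a mucin-related gene. In the Release 6 gene table the records CG9783 and CG14652 are old tags of a single gene, CG34357, and the record CG41467 is shared between CG34357 and CG34425. Mur82C and CG31526 lie within the span of CG34357 in that table and CG32945 is the neighbour beyond it. Whether CG34357 reaches the bait was not determined, since the files use older coordinates and none were converted.

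The domain held 106 genes of the tables, of which 102 had at least 5 probes. Of these 102, 76 averaged over 1 SD across their span, 31 over 2 SD and 11 over 3 SD, with a median of 2.38 (1.59 SD). Elsewhere 792 of 11893 gene spans passed 1 SD, a background of 6.66%, and membership of the domain is what the comparison rests on. With BaitB 0 of the domain genes passed 2 SD, and with BaitA 43 did.

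The 19 genes within 100 kb of the bait were all over 1 SD and 17 were over 2 SD, with a median of 4.64. All 19 were higher in the BaitC array than in either other array in SD units. On the log2 scale the exceptions were CG31523, CG41465, Dlip2 and spartin. They read 4.43, 4.54, 1.99 and 2.48 with BaitC and 5.11, 4.57, 2.55 and 3.08 with BaitA, and Dlip2 read 2.21 with BaitB. The highest spans with at least 5 probes were CG9783 at 5.81 ± 0.54 over 73 probes, CG32945 at 5.76 ± 0.46 over 9 probes and Mur82C at 5.63 ± 0.84 over 30 probes. In the BaitA and BaitB arrays CG9783 read 4.05 and 1.97, CG32945 0.38 and 3.30, and Mur82C 3.99 and -2.08. CG9783 and Mur82C were thus high in both arrays with a 3R bait, and CG32945 was high in the BaitC array and above the median in the BaitB array.

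The small records CG31526 at 6.00 and CG12587 at 5.38 rest on 4 probes each. Next came sac at 5.30 ± 0.54, CG41467 at 5.22 ± 0.94 over 552 probes, CG41516 at 5.16 ± 1.97 and Fip1, a factor of mRNA polyadenylation, at 5.09 ± 0.62. CG14652 averaged 4.89 ± 0.38 over 10 probes, and it read 1.38 with BaitA and -2.82 with BaitB. CG31526 is listed as a long noncoding RNA gene in Release 6.

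On the side away from the centromere the core ended in a cluster of short genes. The serotonin receptor gene 5-HT2A averaged 4.64 over 187 probes at 63 kb from the bait, MED31, a subunit of the Mediator complex, 4.14, and slx1, a subunit of a structure-specific DNA nuclease, 3.96. The ion channel gene rpk read 4.43 and the nuclear import receptor gene Karybeta3 4.34 at 91 kb. Their neighbours Dlip2 at 1.99 and spartin at 2.48 were the lowest spans within 100 kb of the bait. The change of level near 470000 therefore fell within this cluster, and not all of its genes followed it in order of distance.

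Beyond 100 kb, 14 of 83 genes passed 2 SD and 10 were under 0.5 SD. On the centromere side 47 of 52 genes were as high or higher in the BaitA array in SD units, and on the other side 21 of 31 were higher in the BaitC array. That second majority depends on the scale. On the log2 scale the median of these 31 genes was 2.23 with BaitC and 2.56 with BaitA. Genes over 2 SD away from the centromere included eIF3f1, a translation initiation factor subunit, at 3.71, the neprilysin gene Nep2 at 3.45 and laf at 3.51, the last of them 317 kb from the bait. The low members had both low and raised neighbours. tub, which encodes an adaptor of the Toll pathway, read 0.44 at 170 kb, where the BaitA array read 5.52. The ubiquitin-conjugating enzyme gene Ubc6 read 0.15 and plh read -0.80, at 391 and 428 kb from the bait, and plh was near the median in the BaitA array as well, at -0.15. CG14662 beside plh read 0.31, while Jhbp3 beside Ubc6 read 2.49 and CG34112 near tub 2.40.

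Narrow peaks of the domain could be set against those far away. The authors' peak list of the BaitC array held 3588 peaks with a false discovery rate (FDR, from shuffled values) of at most 0.05. Of these, 306 lay on heterochromatic or unassembled scaffolds, 626 on the arms held fewer than 5 probes, and 294 of the rest lay within 1 Mb of the bait on 3R. The remaining 2362 peaks, over 1 Mb away on 3R or on another arm, were called sites. A site was isolated if its flanks, 1 to 10 kb from its edges, averaged under 1 SD, which left 2342 sites, 361 on 3R and 1981 on other arms. The highest flank inside this limit was 0.999 SD and the lowest outside it 1.02 SD. The 275 peaks inside the domain had a median width of 558 bp and a median level of 4.24, and the isolated sites on 3R were narrower and lower, at 380 bp and 3.40. Isolated sites on other arms had medians of 383 bp and 3.14.

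**Figure D3:**
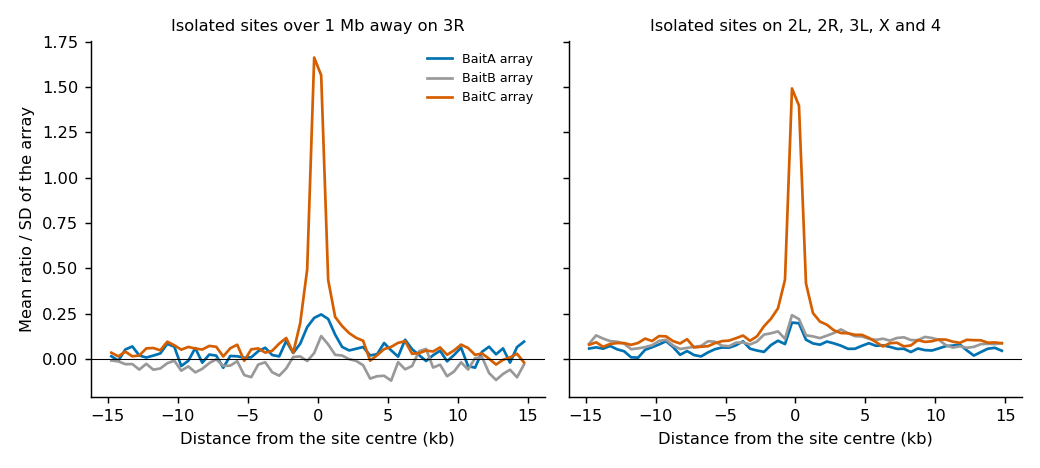
Mean ratio in SD of each array (vertical axis) in 500 bp steps from the centre of isolated sites (horizontal axis, kb), for 361 sites over 1 Mb from the bait on 3R and 1981 sites on the other arms. The BaitC signal at the centre reaches 1.66 SD on 3R and 1.49 SD on the other arms and returns to its surroundings within a few kb, and the BaitA and BaitB arrays are at most 0.25 SD there.

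Sites were chosen for their height in the BaitC array, so their level there is a description, and the other arrays are the independent measure. Of the 361 isolated sites on 3R, 7 (1.94%) were over 2 SD in the BaitA or BaitB array, and of the 1981 on other arms 66 (3.33%). With 1 Mb around BaitB left out, the other arms had 45 of 1934 (2.33%), and 0.903% of all 400 bp windows outside the regions of the baits passed the same limit. Within 1 Mb of BaitB, 21 of 47 isolated sites were over 2 SD in another array. Over 1 SD in another array were 120 of the 3R sites (33.2%) and, with 1 Mb around BaitB left out, 707 of the sites on other arms (36.6%), against 28.9% of windows. Both other arrays were below their median at 67 sites on 3R (18.6%) and at 460 on other arms (23.2%), against 30.8% of windows. The windows were of 1 width and the sites of many, so the shares are set side by side without a test. The mean profiles of the other arrays at these sites were slightly above their flanks.

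On 3R the highest isolated site lay at 17991657 to 17991986, 17.6 Mb from the bait, and its 5 probes averaged 7.28 ± 0.70 (4.87 SD) over flanks of -0.02. It read -2.02 with BaitA and 3.63 with BaitB. It lay 917 bp upstream of the start of CG33335, whose own span stood at -0.14. The site at 1543096 to 1543685 averaged 6.74 ± 0.60 over 11 probes, read -0.67 with BaitA and 3.97 with BaitB, and lay 762 bp upstream of cas, which encodes the neuroblast transcription factor castor. Its flanks were the most raised of the 10 highest sites, at 1.17, and the span of cas itself averaged 2.29. At 25820247 to 25820681, inside CG7903 and 199 bp from its start, the level was 6.71 ± 0.69, against -2.00 and -2.01 with BaitA and BaitB. The centriole gene Sas-6 starts 407 bp away and averaged 0.05. Both reference arrays were below their medians at this place.

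The next sites differed in their surroundings. The widest, at 7882878 to 7883865 with 18 probes, averaged 6.15 ± 0.60 and had no gene of the tables within 5 kb. The site at 8834936 to 8835253 averaged 5.75 inside CG8031. That at 4947749 to 4948131 averaged 5.66 inside pum, 34852 bp from the nearest start of this gene of a translational repressor, whose whole span averaged -0.56 over 2885 probes. A long gene could therefore hold a high site and be low as a whole.

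The site at 26284843 to 26285382, 80 bp from CG2224, averaged 5.61 and was the only 1 of the 10 near 2 SD in another array, with 4.84 (1.98 SD) in the BaitA array. Hpr1, a subunit of the THO complex of mRNA export, held a site of 5.26 at 1645781 to 1646229, where the BaitA array read 3.44. Bub3, a protein of the spindle checkpoint, held a site of 5.14 at 25500216 to 25500480, which the condensin subunit gene Cap-D2 neighbours at 971 bp. None of the 10 passed 2 SD in the BaitA or BaitB array. They lay between 1.16 and 25.9 Mb from the bait. Of the 100 highest isolated sites of all arms, 26 were on 3R, 22 on X, 21 on 2R, 18 on 2L, 13 on 3L and 0 on chromosome 4. Far 3R was also the longest stretch covered by bins, at 26.46 Mb. The other long arms had 24.44 Mb on 3L, 22.77 on 2L, 22.15 on X and 20.99 on 2R.

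**Figure D4:**
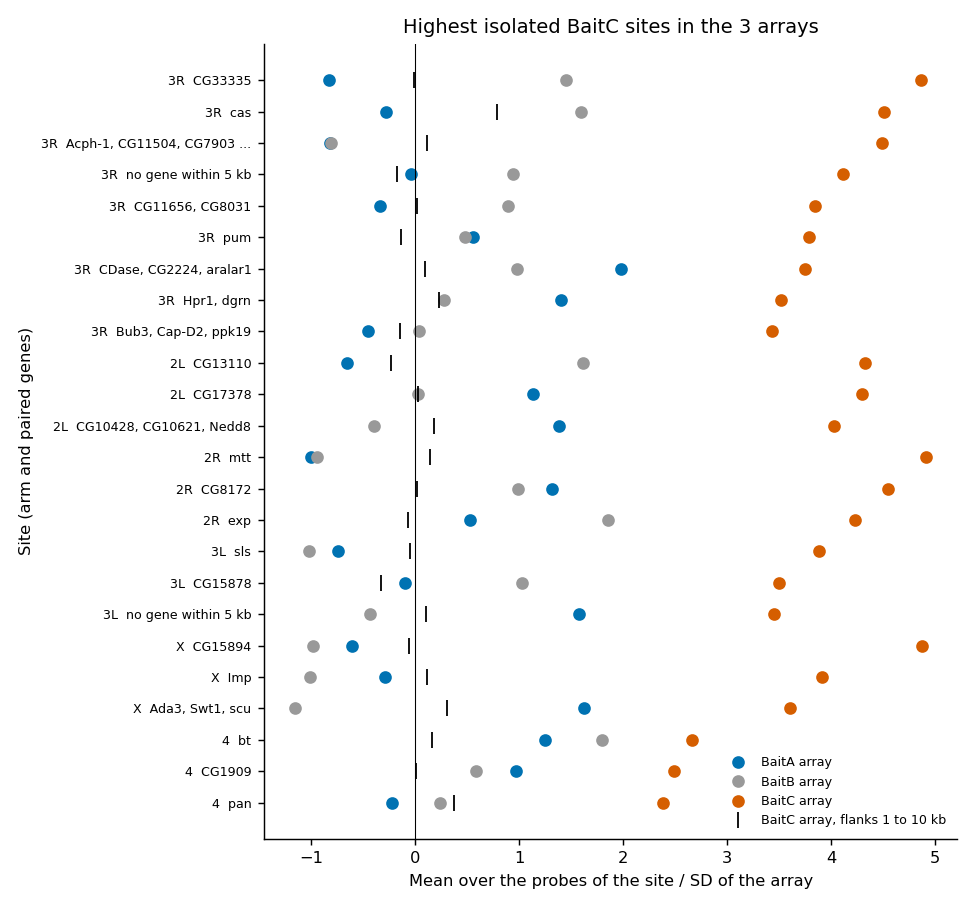
The 10 highest isolated sites on 3R, of which 1 is not shown, and the 3 highest on each other arm (vertical axis, named by arm and paired genes), with the mean over the probes of the site in SD of each array (horizontal axis) and the flanks of the site in the BaitC array. The BaitC points lie between 2.38 and 4.91 SD, to the right of every flank and of every BaitA and BaitB point of the same site.

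On 2R the site inside mtt, a metabotropic glutamate receptor-like gene, at 4367940 to 4368394 was the highest isolated site of all, with 7.34 ± 0.57 over 9 probes (4.91 SD) above flanks of 0.22. The BaitA and BaitB arrays read -2.44 and -2.34 there. The sites near CG8172 at 6.80 and inside exp at 6.32 followed on this arm. At CG8172 the BaitA and BaitB arrays read 3.22 and 2.47, and at exp they read 1.30 and 4.63. The first of these 2R sites was thus low in both reference arrays and the others were raised to some degree in at least one.

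On 2L the sites inside CG13110 at 9350554 to 9350818, 96 bp from CG17378 at 6777829 to 6778215 and across the start of Nedd8 at 18951476 to 18951743 averaged 6.46, 6.42 and 6.02. Nedd8 encodes a ubiquitin-like modifier, and its short span averaged 5.03 over 9 probes. CG13110 lies 865 kb from BaitB and read 4.04 in the BaitB array. With BaitA and BaitB, the site near CG17378 read 2.77 and 0.07, and that at Nedd8 3.395 and -0.975. On 3L the highest site, 5.81 ± 0.26 at 2085118 to 2085433, was inside sls, the gene of a titin-like muscle protein, 28864 bp from a start. It read -1.82 and -2.54 with BaitA and BaitB. The sites inside CG15878, at 5.23, and at 20695361 to 20695666, at 5.16 with no gene of the tables within 5 kb, came next. With BaitA and BaitB, the former read -0.24 and 2.56, and the latter 3.86 and -1.07.

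On X the site inside CG15894 at 6217598 to 6218072 averaged 7.28 ± 0.32 over 9 probes, against -1.48 and -2.44 with BaitA and BaitB. The site 2218 bp upstream of Imp, an RNA-binding protein gene, averaged 5.85, and that between Ada3, a transcription coactivator gene, and Swt1 averaged 5.40. With BaitA and BaitB, the site near Imp read -0.70 and -2.52, and that between Ada3 and Swt1 3.98 and -2.865. On chromosome 4 the levels were lower, at 3.98 in bt, which encodes the muscle protein projectin, 3.72 in CG1909 and 3.57 in pan, the transcription factor of Wnt signalling. With BaitA and BaitB, the bt site read 3.05 and 4.49, that in CG1909 2.38 and 1.47, and that in pan -0.55 and 0.61. On the log2 scale the bt site was thus higher with BaitB than with BaitC, though not in SD units (1.80 against 2.66). Of these 25 sites, 16 were inside a gene span, 11 within 1 kb of a start site and 2 without a gene within 5 kb. Of all probes on the arms, 43.8% were inside a span and 20.4% within 1 kb of a start. Of the 16 genes that held a site, 7 averaged over 1 SD across their span, the site included, and 3 were below 0. Of all gene spans outside the domain 6.66% passed 1 SD, but these 16 were chosen for holding a high site.

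Across arms, X and chromosome 4 had the highest levels. Bins averaged 0.24 ± 0.49 on X (0.16 SD), against -0.08 on 2L, -0.06 on 2R, -0.05 on 3L and -0.07 on 3R beyond 1 Mb from the bait. The mean of X was 0.31 above that of 2L, 2R and 3L together. In the BaitA and BaitB arrays X was low, at -0.47 and -0.49. Chromosome 4 averaged 0.55 ± 0.39 in the BaitC array, and with BaitA and BaitB 1.03 and 0.49. X held 30.4 isolated sites per Mb and chromosome 4 held 25.2, while 2L, 2R and 3L held 17.8, 19.6 and 18.7 and far 3R held 13.6. The ratio of X over 2L, 2R and 3L was 1.63.

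**Figure D5:**
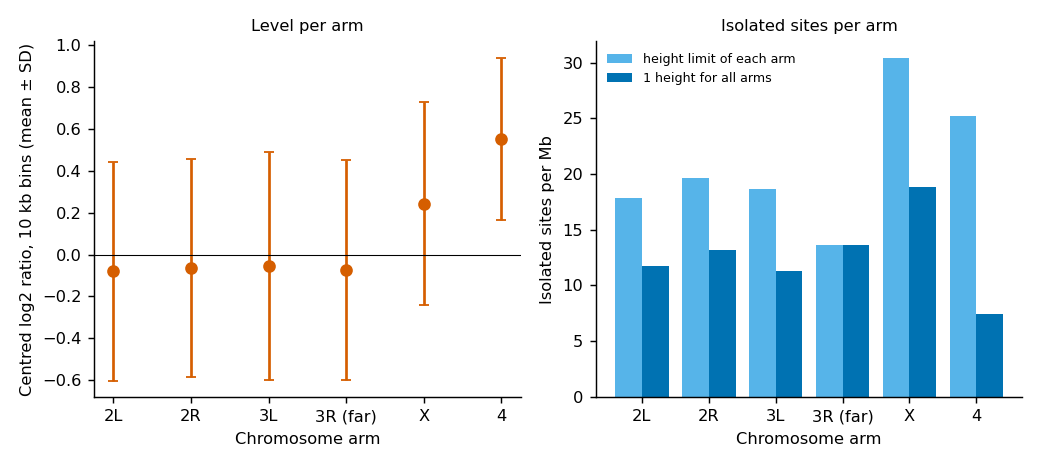
Left, mean log2 ratio of 10 kb bins of the BaitC array on each arm (bars are the SD over bins), with 3R beyond 1 Mb from the bait. Right, isolated sites per Mb with the authors' height limit of each arm and with 1 height for all arms: far 3R has 13.6 per Mb under both, below 2L, 2R and 3L in the former and above them in the latter, where they read 11.7, 13.2 and 11.3, and X is highest under both.

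The lowest peak score at an FDR of at most 0.05 differed between arms, from 2.70 on chromosome 4 to 3.08 on 3R, because the authors set it per arm. With 3.08 for all arms, far 3R over 2L, 2R and 3L went from 0.730 to 1.14, so that a shortage of sites on the bait's own arm turned into a small excess. X over these arms stayed at 1.57, and chromosome 4 dropped to 7.41 sites per Mb. Among sites over 3 SD, X had 1.26 per Mb and far 3R 1.10, against 0.97, 1.24 and 0.74 on 2L, 2R and 3L. Within far 3R, 5.79% of bins at 1 to 5 Mb from the bait were over the domain limit and 2.85% beyond 5 Mb. The same limit was passed by 2.81% of bins on 2L, 2.72% on 2R, 3.64% on 3L and 10.9% on X.

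Wide raised places outside the domain were few, and the 2 highest were raised on average in all 3 arrays. Of 15 runs of at least 3 bins over the limit and outside the domain, 8 were on X, 3 on 3R, 2 on 3L, 2 on chromosome 4 and 0 on 2L and 2R. The highest run away from 3R lay at 20001 to 50000 of 3L, beside mthl8. It averaged 2.77 (1.85 SD) with BaitC, 2.45 (1.00 SD) with BaitA and 2.12 (0.85 SD) with BaitB. Its probes were nearly level, with an SD of 0.57 in the BaitC array, where the median bin of the array had 1.36. The run at 1320001 to 1350000 of chromosome 4 followed, with 1.20, 0.72 and 0.68 SD for BaitC, BaitA and BaitB. The next 2, on X at 20001 to 70000 and 6800001 to 6830000, read 1.04 and 0.99 SD with BaitC. There BaitA read 0.43 and 0.15 SD, and BaitB 0.01 and 0.36 SD. These are averages over the run, and the highest bin of each run was raised in all 3 arrays. On the log2 scale the bin at 20001 to 30000 read 2.68 with BaitC, 2.05 with BaitA and 1.78 with BaitB. The bin at 6810001 to 6820000 read 2.70, 2.11 and 1.94 in the same order. Of the 20 sites that were not isolated, 14 lay in such runs on 3L, X and chromosome 4, and the other 6, of which 5 were on X near Lsd-2 and 1 on 2R, lay in none. On X, 9130001 to 9170000 averaged 0.99 for BaitC against -0.41 and -0.31 with BaitA and BaitB, and 17560001 to 17610000, which holds par-6 and beta-Spec, 0.95 against -0.17 and 0.13. Among scaffolds, the Y heterochromatin averaged 2.11 ± 0.50 with all 34 bins over the limit, against 2.15 and 1.80 in the BaitA and BaitB arrays. The 3R heterochromatin averaged 0.64 ± 0.37 and was higher in both other arrays, at 2.25 with BaitA and 0.94 with BaitB.

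The isolated sites lay near genes of the tables more often than probes did. Inside a gene span were 60.1% of isolated sites on 3R and 55.7% of those on other arms, against 43.8% of all probes on the arms. Within 1 kb of a start site were 38.2% and 29.5%, against 20.4% of probes. The tables list only genes near a peak of at least 1 of the 3 baits, these sites included, so the shares are raised by the choice of genes and were not tested. In all 2974 genes were paired with an isolated site, 548 of them on 3R.

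Start sites of 3 gene lists were read in windows of 1 kb to each side. Over all 12159 genes measured, the median was 0.26 and 656 passed 1 SD, which is 5.4%. Of the 14 genes that encode insulator proteins, 8 were above the median of their arm, 1 was over 1 SD and the list's median was 0.43. ZIPIC, which encodes a zinc finger protein that recruits Cp190, read 2.15 in the BaitC array and -0.38 and -1.45 in the BaitA and BaitB arrays. su(Hw) read 1.36, Cp190 0.20, CTCF -0.47 and BEAF-32 -0.01. The genes of the insulator proteins were thus spread on both sides of the median, as all genes were.

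Of 17 sarcomere genes, whose products build the contractile units of muscle, 13 were above the median of their arm, 1 was over 1 SD and the median was 0.61. sls read 1.72 at its start sites, a different place from its site of 5.81, and the tropomyosin gene Tm1 read -1.03. In the BaitA and BaitB arrays the medians of this list were 1.01 and 0.49, against 0.37 and 0.39 over all genes. Of 16 neuron genes measured, 3 were above the median of their arm, 1 was over 1 SD and the median was -0.27. The calcium channel gene cac read 2.56, with 0.71 and 0.08 in the BaitA and BaitB arrays. Appl at -1.86, nSyb at -1.38, Gad1 at -1.04 and Nrx-1 at -0.82 were the lowest of the neuron list. With BaitA and BaitB, Appl read -3.32 and -3.23, nSyb 0.04 and 2.34, Gad1 1.52 and -3.04, and Nrx-1 1.37 and 0.79. The list's medians there were 0.14 and 0.46, against 0.37 and 0.39 over all genes.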

How the data were processed

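The deposited log2 ratios per probe of 3 NimbleGen arrays were used, 1 array for each bait. The authors' normalisation and any centring are steps that the sources used here do not give. The base of the log was taken as 2 and the 4C channel as numerator, since values are raised at each bait. The deposited BaitC median was -0.02, and each array was centred on its median. Per the file headers, NimbleScan called peaks on each array separately, and BaitC was hybridisation 3 of its slide. The peak scores are the authors' and lie on the log2 scale, and the deposited FDR comes from shuffled values. Tables deposited with the lists match peaks of FDR at most 0.2 to transcripts within 5 kb, without exons. Every value column belonged to a sample.

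Coordinates are those of the deposited files, whose build is not named and whose arm lengths are those of Drosophila Release 5. A Release 6 gene table gave names and neighbours only, and 16169 of 17767 accessions matched it. Probes, at a median step of 55 bp, were averaged in 10 kb bins with at least 20 probes, over peaks with at least 5 probes, over gene spans, and within 1 kb of start sites (Python 3.11.15, NumPy 2.4.6, pandas 2.3.3). Named genes were those nearest the bait, the 10 highest spans of the domain, those paired with the 10 highest isolated sites on 3R and the 3 highest on each other arm, and list members over 1 SD or under -0.5 SD. The result of 1 of these sites on 3R is not reported here. Other genes, such as those at the ends of the core and low domain genes, were chosen after their values were seen. Members, lists and settings were chosen with earlier results of these data known. The domain and site steps were tested on simulated data. A search for promoter motifs was not run and no sequence is printed, because no genome of this build was used here. PCR products compared with genomic DNA make a ratio that is not a contact frequency.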

Additional observations from a re-analysis of the deposited data

How the results depend on the processing

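Of 36 alternatives, 26 stayed within 1.5 times the reported count, ratio or length, or within the SD over bins, 9 moved and 1 turned its direction. The domain of 840 kb became 1400 kb with 20 kb bins and 1390 kb with 10 bins in a row below the limit. The 361 isolated sites on 3R became 190 at an FDR of at most 0.01 and 1078 at 0.2, and the 1981 on other arms became 915 and 5142. The direction that turned was that of sites per Mb on far 3R over 2L, 2R and 3L, which went from 0.730 to 1.14 with 1 peak height. Of the sites on other arms, 66 were over 2 SD in another array and 752 over 1 SD. With 1 Mb around BaitB left out these were 45 and 707 of 1934, against 0.903% and 28.9% of windows. Genes paired with an isolated site fell from 2974 to 1569 at an FDR of at most 0.01. Genes over 1 SD at their start went from 656 to 1227 within 500 bp. The cause was not tested where the alternative's own limit does not set the count. Leaving out 1 Mb around BaitB was chosen after seeing the data. No paired analysis was possible because each bait had 1 array, and no array could be left out. The promoter motif alternative was not run.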

Other observations

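Some genes were paired with several isolated sites of the BaitC array, inside their span or within 5 kb of it. The counts were not adjusted for the length of the gene or its arm. X held 30.4 isolated sites per Mb, against 17.8, 19.6 and 18.7 on 2L, 2R and 3L. Flo2, the flotillin gene on X, was paired with 9 sites between 2.18 and 4.12, and its span of 91.3 kb averaged 0.78, against 0.15 for BaitA and 0.06 for BaitB. The perlecan gene trol, also on X, was paired with 7 sites between 2.35 and 3.92, over a span of 73.5 kb that averaged 0.46, with -0.25 and -0.70 in the BaitA and BaitB arrays. Each of 18 further genes was paired with 4 sites, among them the channel genes cac, with a highest site of 5.01, and para, with 3.58. Appl was paired with 4 sites of up to 3.82, and its start windows read -1.86. On 2L, CG13992, Ucp4B and Ucp4C shared 4 sites of up to 3.84, and only CG13992 averaged over 2 across its span, at 2.28.

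Outside the domain, the start windows with the highest means were those of Jheh2, a juvenile hormone epoxide hydrolase gene on 2R, at 3.61, cas at 3.40 and CG14915 at 3.23. Jheh2 was also high with BaitA, at 4.04, and with BaitB, at 2.82, while cas read 0.33 and -0.13 there. HP1b, which encodes a heterochromatin protein 1 paralogue, read 2.96, with -0.61 and 1.59 in the BaitA and BaitB arrays. Each value comes from 1 array, and these genes were chosen after their values were seen.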
